A study of Homo sapiens with 8 samples.

Results

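Transcript levels of 10 genes of the S100 family, S100A2, S100A3, S100A4, S100A6, S100A10, S100A11, S100A13, S100A14, S100A16 and S100P, were examined in A-498 cells. The genes were taken by name from a table of 28395 genes. Of the 10 genes, 8 passed the filter on low values, a normalized read count of at least 10 in at least 2 libraries, which 14040 genes passed. S100A14 and S100P did not. A-498 is an established human kidney cancer cell line, and the series asked which polyadenylated transcripts differ when ANXA4, the gene of annexin A4, is targeted with single guide RNAs.

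The 8 libraries came from 4 lines of A-498 with 2 replicates each. Control lines 1 and 2 had a wild type genotype in the labels and received non-targeting sgRNA-1 and non-targeting sgRNA-2, and the lines of genotype ANXA4 knockout (KO) received ANXA4 sgRNA-1 and ANXA4 sgRNA-2. All lines were grown for 24 h in the same medium and harvested before confluence. Each guide was present in a single line, so that guide and line cannot be told apart, and the labels do not say whether a line is a clone. The labels do not say that replicates were separate cultures, so p-values measure the spread between these samples, which may be technical. ANXA4 transcript was low in the first KO-labelled line only, with normalized read counts of 2821 and 3614 (control line 1), 3858 and 6773 (control line 2), 236 and 234 (KO-labelled line 1) and 3433 and 4142 (KO-labelled line 2). The lines are therefore called KO-labelled line 1 and KO-labelled line 2, and a direction of KO against control means as labelled.

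S100 proteins are small calcium-binding proteins with paired EF-hand motifs that work mostly as dimers. On binding calcium, most of them expose a hydrophobic surface that docks onto target proteins, prominent among them the N-terminal tails of annexins, which in turn bind membranes in a calcium-dependent manner. S100A10 is an exception, locked in the calcium-bound shape without calcium, and forms a stable complex with annexin A2 that captures plasminogen and its activators at the cell surface. S100A11 is the best known partner of annexin A1, and S100A6 binds annexins A2 and A11 and the ubiquitin ligase adaptor CACYBP. Most S100 genes lie in a cluster on the long arm of chromosome 1 together with genes of epidermal proteins that carry an S100 domain.

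Promoter sequences are shown first for 5 genes. S100A16 was the 1 member called between lines in the main test, a call lost in most fits without 1 library. In KO-labelled line 2, where it was called, 11.2% of all genes were. S100A11, S100A13 and S100A2 moved with the replicate number, and S100A14 was close to 0 in every library. The sequences are the 250 bases before each gene's RefSeq start on GRCh38.p14, cut back where an annotated exon begins, and capitals mark the motif matches. All lie on chromosome 1 and are read from the minus strand, 5′ to 3′, at chr1:153613146-153613387 and chr1:153609356-153609605 for the 2 annotated starts of S100A16, chr1:152037036-152037254 for S100A11, chr1:153634398-153634611 for a start of S100A13, chr1:153565866-153566094 for a start of S100A2 and chr1:153616356-153616575 for S100A14.

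S100A16, start 1: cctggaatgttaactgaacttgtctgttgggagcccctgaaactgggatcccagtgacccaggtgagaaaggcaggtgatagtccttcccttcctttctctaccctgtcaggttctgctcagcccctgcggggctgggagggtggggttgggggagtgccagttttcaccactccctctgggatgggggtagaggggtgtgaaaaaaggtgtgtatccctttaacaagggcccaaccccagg
S100A16, start 2: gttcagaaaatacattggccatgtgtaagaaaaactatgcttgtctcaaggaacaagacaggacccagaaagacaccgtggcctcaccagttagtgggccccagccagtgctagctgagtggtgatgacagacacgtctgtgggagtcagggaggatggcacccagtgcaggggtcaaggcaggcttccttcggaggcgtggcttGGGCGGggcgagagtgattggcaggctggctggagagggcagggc
S100A11: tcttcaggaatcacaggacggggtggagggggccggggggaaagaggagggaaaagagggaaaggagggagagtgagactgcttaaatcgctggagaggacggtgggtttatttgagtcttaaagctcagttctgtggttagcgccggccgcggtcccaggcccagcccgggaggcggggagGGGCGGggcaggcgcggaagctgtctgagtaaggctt
S100A13, start 1: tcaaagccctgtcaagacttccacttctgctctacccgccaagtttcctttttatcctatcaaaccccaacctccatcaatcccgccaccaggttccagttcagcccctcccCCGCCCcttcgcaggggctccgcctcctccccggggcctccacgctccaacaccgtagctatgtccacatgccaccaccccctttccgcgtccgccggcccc
S100A2, start 1: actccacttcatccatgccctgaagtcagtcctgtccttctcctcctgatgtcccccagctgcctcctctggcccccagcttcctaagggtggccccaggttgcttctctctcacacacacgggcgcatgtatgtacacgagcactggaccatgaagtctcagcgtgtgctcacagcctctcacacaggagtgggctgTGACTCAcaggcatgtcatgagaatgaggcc
S100A14: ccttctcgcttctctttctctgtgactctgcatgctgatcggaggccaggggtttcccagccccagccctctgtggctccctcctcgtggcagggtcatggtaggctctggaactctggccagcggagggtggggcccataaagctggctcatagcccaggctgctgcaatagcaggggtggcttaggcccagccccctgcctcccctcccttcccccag

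Motifs were searched on both strands in the full 250 bases, where the TATA box, searched as TATAAA, was present in 10.7% of 35116 RefSeq promoters. The GC box, with the letters GGGCGG, was found in 42.6% of these promoters. The AP-1 site, in the form of TGANTCA, was present in 6.57%. The GC box was found 45 bases before the second start of S100A16, 68 bases before that of S100A11 and, as its reverse complement, 138 bases before the first start of S100A13. S100A6 held GC boxes 90, 79 and 75 bases before its start, and S100A10 held 1 at 167 bases. An AP-1 site lay 52 bases before the first start of S100A2, and S100A3 had an AP-1 site 225 bases and a GC box 142 bases before its start. The windows of the first start of S100A16 and of S100A14 held none of these motifs. A TATA box lay 31 bases before the start of S100A4, 29 before the second start of S100A13 and 28 before that of S100P. The windows of S100A6 and S100A10, not printed because an annotated exon covers them, held 24 CpG dinucleotides each, and those of S100A11 and of the first start of S100A13 held 15, against a median of 11 over all promoters with quartiles of 3 and 23. The first windows of S100A16, S100A14, S100A2 and S100A3 held 1, 4, 4 and 4. The counts per gene do not tell the starts apart. A match describes the letters only and is not evidence that a factor binds.

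The libraries held 15784890 to 22631588 reads, recovered exactly from the deposited values. Reads carried no molecular identifiers, so limits from counts cover counting error only. The 10 S100 genes together took 0.118% (control line 1, replicate 1) to 0.229% (KO-labelled line 2, replicate 2) of the reads. Mitochondrial genes took 4.67% and 13.8% in the same 2 libraries and 6.23% to 9.05% in the 6 others. Of the markers of kidney epithelial cancer cells, PAX8, a transcription factor of kidney epithelium, was at 2987 to 4476 and KRT8, KRT18 and VIM were read in every library at 6032 or more, while EPCAM was at most 9.46 and CA9 at most 24.8. The leukocyte marker PTPRC was at most 1.21, and COL1A1, a collagen gene, was the only fibroblast marker with a level above 19.8. Expression of S100A8 and S100A9, the S100 genes of neutrophils and monocytes, reached at most 2.27 and 4.53.

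Per kilobase of annotated exon, taken as the union of all annotated exons of a gene, the members spanned several orders of magnitude. This union can be longer than the transcript present in the cells, so the order of genes depends on it. S100A11 had the highest mean level over the 8 libraries, 14130.2 normalized reads per kb, with a range of 9709 to 24477. It was followed by S100A6 at 10429 (range 7436 to 16245), whose range overlapped that of S100A11, and by S100A10 at 4547 (range 3145 to 5649), which did not reach the lowest library of S100A6. S100A13 at 453 (range 306 to 611) and S100A16 at 392 (range 308 to 544) formed a middle tier and overlapped each other. S100A2 at 135 (range 73.5 to 216) and S100A3 at 42.9 (range 26.5 to 82.3) overlapped at their edges. S100A4 stood at 12.8 (range 8.12 to 18.2), and S100A14 and S100P did not exceed 4.44 and 2.45. For scale, annexins A5, A2 and A1 averaged 6339, 4012 and 3585 normalized reads per kb, and ANXA4 ranged from 21.2 to 613. On this scale the mean levels of S100A11 and S100A6 lay above those of these annexins, and that of S100A10 between ANXA5 and ANXA2. In normalized counts not divided by length, S100A10 and S100A11 lay below ANXA2 in every library. Their log2 ratios to ANXA2 were -2.64 to -2.04 and -2.49 to -1.11, so the ranking against annexins is not settled.

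**Figure D1:**
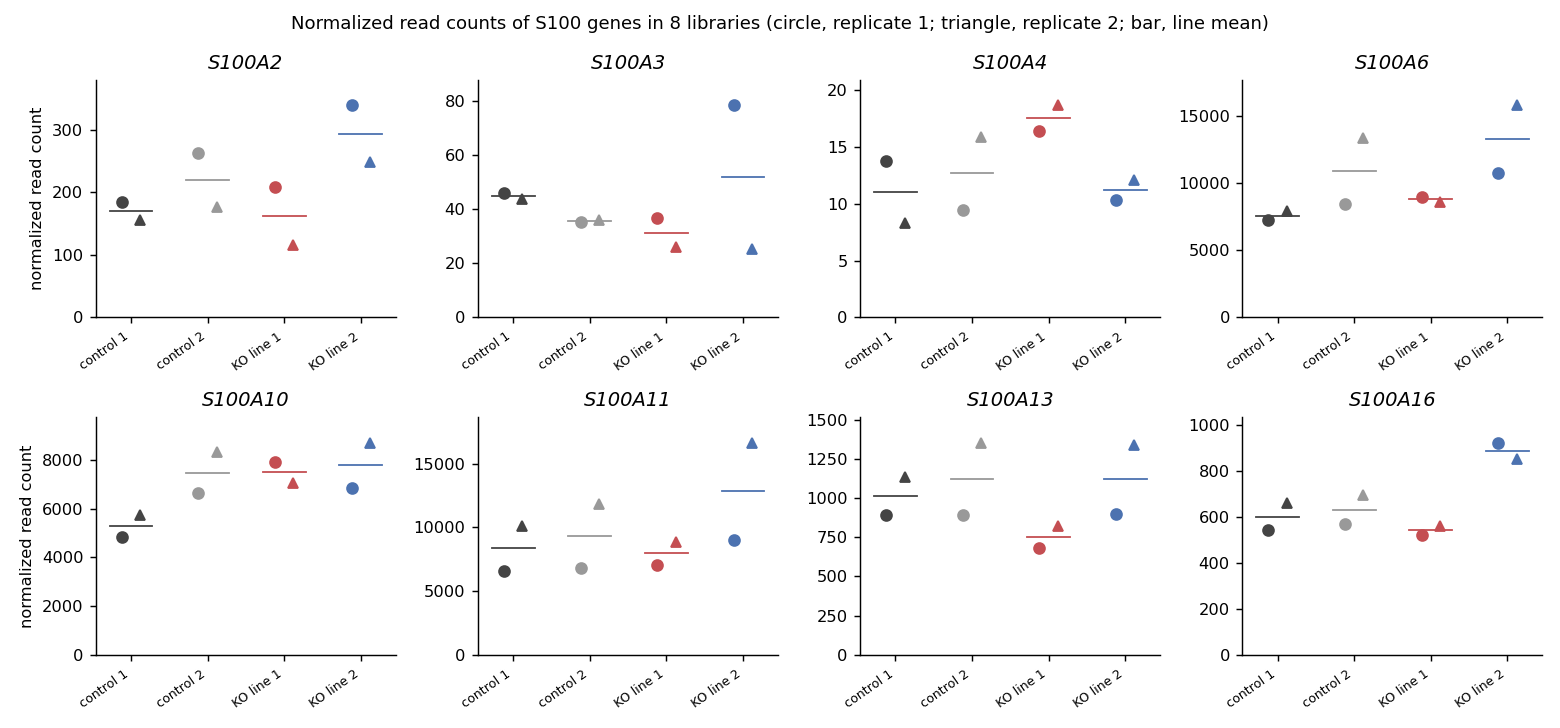
Normalized read counts (linear axes from 0) of the 8 tested S100 genes in each library, with 1 panel per gene and 1 column per line. Circles are replicate 1, triangles replicate 2 and horizontal bars line means. S100A16 is higher in both libraries of KO-labelled line 2 (926 and 855) than in any other, and triangles lie above circles in every line for S100A11 and S100A13 and below them for S100A2.

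The members best known as annexin partners were the most abundant. S100A10 (Entrez gene 6281, chr1:151982915-151993859), the partner of annexin A2, had 4853 and 5757 (control line 1), 6642 and 8318 (control line 2), 7923 and 7071 (KO-labelled line 1) and 6853 and 8716 (KO-labelled line 2). Control line 1 was the lowest line, and the other lines overlapped each other. S100A11 (Entrez gene 6282, chr1:152032506-152037004), the partner of annexin A1, had 6602 and 10068 (control line 1), 6831 and 11799 (control line 2), 7077 and 8813 (KO-labelled line 1) and 9034 and 16644 (KO-labelled line 2). In every line replicate 2 was the higher. S100A6 (Entrez gene 6277, chr1:153534599-153535991), a partner of annexins A2 and A11, had 7220.2 and 7918 (control line 1), 8445 and 13371 (control line 2), 8961 and 8612 (KO-labelled line 1) and 10713 and 15774 (KO-labelled line 2). The second replicates of control line 2 and KO-labelled line 2 stood above all other libraries for S100A6 and S100A11, and these were also the libraries with the highest mitochondrial shares, 9.05% and 13.8%, whose part in these levels was not tested. Antisense transcripts are annotated over S100A6 and S100A11 (BX470102.1 and AL450992.1), and strand use in counting is not given in the sources used here, so reads of both strands could not be told apart.

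Set against the annexin partner within a library, the log2 ratio of S100A10 to ANXA2 normalized counts was -2.45 ± 0.16 in the control libraries and -2.20 ± 0.15 in the KO-labelled libraries (SD, n = 4 each). It ranged from -2.64 to -2.04 over the 8 libraries, the narrowest of the 3 ratios, and the groups overlapped. The log2 ratio of S100A11 to ANXA1 was -0.86 ± 0.43 and -0.77 ± 0.79. Its lowest value was -1.61 in replicate 1 of KO-labelled line 1 and its highest 0.22 in replicate 2 of KO-labelled line 2, where S100A11 was at its highest. The log2 ratio of S100A6 to ANXA11 was 1.50 ± 0.34 and 1.54 ± 0.55. These ratios carry the gene lengths, so their level does not give a stoichiometry, and no test was made on them.

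S100A13 and S100A16 were read at intermediate levels. S100A13 (Entrez gene 6284, chr1:153618799-153634361), which takes part in the release of FGF1 and interleukin 1 alpha without a signal peptide, had 895 and 1137 (control line 1), 894 and 1355 (control line 2), 679 and 825 (KO-labelled line 1) and 902 and 1342 (KO-labelled line 2). Both libraries of KO-labelled line 1 lay below all others. S100A13 overlaps S100A1 on the opposite strand and AL162258.1 on its own strand, so its counts are uncertain to that extent. S100A16 (Entrez gene 140576, chr1:153606883-153613137), a broadly expressed member, had 542 and 664 (control line 1), 569.6 and 697 (control line 2), 524 and 562 (KO-labelled line 1) and 926 and 855 (KO-labelled line 2). Both libraries of KO-labelled line 2 lay above the 6 others. Control line 1 overlapped control line 2 and KO-labelled line 1, while KO-labelled line 1 lay below control line 2.

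S100A2, S100A3 and S100A4 were lower. S100A2 (Entrez gene 6273, chr1:153561108-153565844), a mostly nuclear protein of epithelial cells, had 184 and 156 (control line 1), 263 and 177 (control line 2), 208 and 115 (KO-labelled line 1) and 339 and 249 (KO-labelled line 2). Replicate 2 was the lower in every line. S100A3 (Entrez gene 6274, chr1:153547329-153549258), a protein of hair cuticle that binds zinc, had 46.0 and 43.7 (control line 1), 35.3 and 36.3 (control line 2), 36.8 and 25.9 (KO-labelled line 1) and 78.6 and 25.4 (KO-labelled line 2), and only the first replicate of KO-labelled line 2 stood apart. S100A4 (Entrez gene 6275, chr1:153543621-153545806), which binds non-muscle myosin and is linked to cell motility, was near the filter with 13.8 and 8.32 (control line 1), 9.46 and 15.9 (control line 2), 16.4 and 18.7 (KO-labelled line 1) and 10.3 and 12.1 (KO-labelled line 2), at most 21 reads in a library. The gene models of S100A3 and S100A4 overlap on the same strand in the GENCODE annotation, though not at the RefSeq coordinates given here, so the division of reads between them is uncertain.

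S100A14 (Entrez gene 57402, chr1:153614255-153616325), an epithelial member, had 2.76 and 1.04 (control line 1), 4.30 and 5.66 (control line 2), 2.35 and 2.07 (KO-labelled line 1) and 0 and 4.83 (KO-labelled line 2), at most 5 reads in a library. S100P (Entrez gene 6286, chr4:6693878-6697170), first described in placenta, had 0 and 1.04 (control line 1), 0 and 0 (control line 2), 3.13 and 0 (KO-labelled line 1) and 1.03 and 1.21 (KO-labelled line 2), at most 4 reads, with 0 reads in 4 libraries, where a count of 0 allows up to 3. A difference in either gene was not detectable at this depth. Among the 11 other S100 genes in the table only S100A1, best known from heart muscle, passed the filter, at 13.3 to 38.6. S100A5 was at most 6.02, and S100A7, S100A8, S100A9, S100A12, S100G and S100Z at most 4.53. S100A7A, S100A7L2 and S100B had 0 reads in all 8 libraries.

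Over all libraries, no S100 gene passed the test for a difference between KO-labelled and control lines. Differences are given on the scale of log2(normalized count + 1) with their standard error, and p-values come from limma, adjusted over all 14040 genes by Benjamini-Hochberg, with a call at an adjusted p under 0.05. Of the 8 tested members 0 were called, where 0.235% of all tested genes were called (33 genes), and 0 had an unadjusted p under 0.05. With edgeR and DESeq2 on the recovered reads the members called were also 0, against 1.32% and 6.05% of all genes. The controls had 6392 ± 1477 counts of S100A10 and the KO-labelled libraries 7641 ± 853 (SD, n = 4 each), a difference of 0.28 (SE 0.20, adjusted p 0.656) with a 95% interval of -0.16 to 0.72. S100A6 was at 9238 ± 2800.5 and 11015 ± 3303, a difference of 0.25 (SE 0.27, adjusted p 0.809). The other differences were 0.27 for S100A4, 0.20 for S100A11, 0.18 for S100A16, 0.15 for S100A2, -0.10 for S100A3 and -0.22 for S100A13, with adjusted p between 0.837 and 0.962. The median over the 8 members was 0.19, beside 0.00073 over all genes, and the KO and control ranges overlapped for every member, whereas 10.6% of all genes had ranges that did not. For S100A16 the 95% interval of -0.30 to 0.66 still includes differences in both directions, so equal levels are not shown.

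KO-labelled line 1, the line with low ANXA4 transcript, was then compared with both control lines in a model with 1 mean for each line. The controls are the same libraries as in the comparison of KO-labelled line 2. Of the 8 members 0 were called, where 7.01% of all genes were (984). The lowest difference was that of S100A13, at 752 ± 103 (SD, n = 2) against 1070.1 ± 222 (SD, n = 4), -0.49 (SE 0.22, adjusted p 0.215). With the replicate number as a block S100A13 was called lower, with an adjusted p of 0.00523, while 24.4% of all genes were called in that fit. S100A4 differed by 0.57 (SE 0.38, adjusted p 0.395) and S100A10 by 0.26 (SE 0.15, adjusted p 0.349). The remaining members lay between -0.36 (S100A3) and -0.03 (S100A6), and the median was -0.15, beside -0.00087 over all genes. This comparison also moved with gene length, and the S100 genes are short. Over all tested genes with an annotated length, the median was -0.16 for exon lengths up to 1 kb and -0.14 for 1 to 2 kb. It was -0.07 for 2 to 4 kb and 0.12 above 8 kb. S100A13 lay below and S100A4 above all control libraries, 2 of 8 members, where 33.9% of all genes had no overlap.

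S100A16 was higher in KO-labelled line 2. It stood at 890.1 ± 50.2 (SD, n = 2) against 618 ± 73.8 (SD, n = 4) in the control lines, a difference of 0.53 (SE 0.14, adjusted p 0.0442), and was the 1 member of 8 called, where 11.2% of all genes were (1573). It was also the 1 member whose libraries did not overlap with the controls, as 29.6% of all genes did not. Of the 8 fits that each left out 1 library, only the one without replicate 2 of control line 2 kept the call of S100A16, with differences of 0.46 to 0.60 and adjusted p of 0.0399 to 0.151, and the call was also lost with no filter on low values (adjusted p 0.0555) and with equal library totals (adjusted p 0.0510). The edgeR and DESeq2 tests called it with adjusted p of 0.0383 and 0.0224, where 4.92% and 5.59% of all genes were called higher. The libraries of KO-labelled line 2 had mitochondrial shares of 6.40% and 13.8%, whose part in this difference was not tested. In RNA from whole cultures, more cells with a transcript and more transcript per cell cannot be told apart.

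Other members pointed the same way in KO-labelled line 2 without passing the test. S100A2 differed by 0.60 (SE 0.27, adjusted p 0.198), S100A6 by 0.54 (SE 0.21, adjusted p 0.141), S100A11 by 0.52 (SE 0.30, adjusted p 0.317) and S100A10 by 0.30 (SE 0.15, adjusted p 0.253). S100A3, S100A13 and S100A4 differed by 0.16, 0.06 and -0.04. The median over the 8 members was 0.41, beside 0.0096 over all genes. With the replicate number as a block, 4 members were called, all higher, S100A16 (adjusted p 0.00469), S100A11 (0.00653), S100A2 (0.0111) and S100A6 (0.0126), while 27.4% of all genes were called and 12.5% were called higher. S100A10 then had an adjusted p of 0.0703. Leaving out 1 library, in fits without the block, gave 0.08 to 0.96 for S100A11, 0.26 to 0.82 for S100A6 and 0.38 to 0.82 for S100A2.

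**Figure D2:**
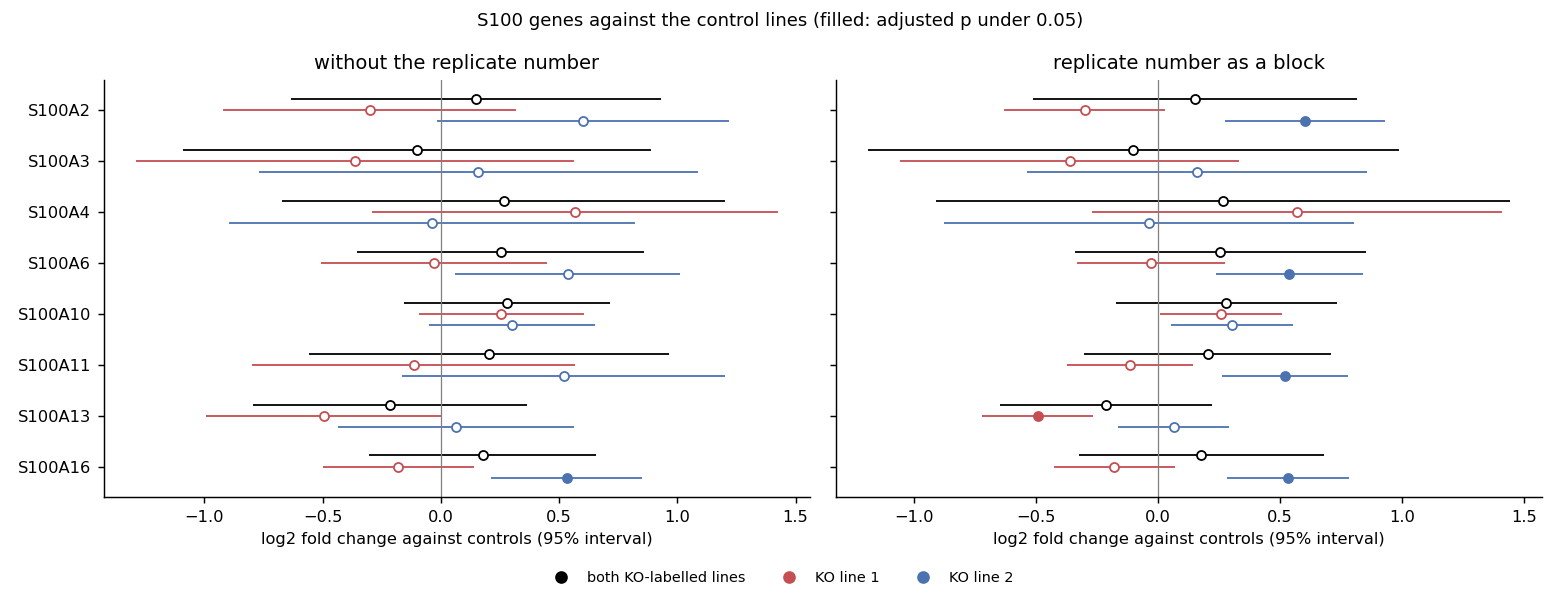
Differences of the 8 tested S100 genes from the control lines on the log2 scale (x axis, with 95% intervals), for both KO-labelled lines together (black), KO-labelled line 1 (red) and KO-labelled line 2 (blue), without (left) and with (right) a replicate block. Filled points have an adjusted p under 0.05: S100A16 in line 2 on the left (0.53), and on the right S100A2, S100A6, S100A11 and S100A16 in line 2 and S100A13 in line 1 (-0.49).

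The KO-labelled lines were compared with each other directly, which needs no control library for the means. S100A16 was higher in line 2 than in line 1, 890.1 ± 50.2 against 543 ± 27.2 (SD, n = 2 each), a difference of 0.71 (SE 0.16, adjusted p 0.0380). It was again the 1 member called, where 6.94% of all genes were (975). Leaving out 1 library at a time, with the lone library of a line assumed to vary like the others, gave 0.65 to 0.77 with adjusted p of 0.0368 to 0.184, and the call held only without a replicate of control line 2. S100A2 differed by 0.90 (SE 0.31, adjusted p 0.121), S100A11 by 0.63 (SE 0.35, adjusted p 0.303), S100A6 by 0.57 (SE 0.24, adjusted p 0.196) and S100A13 by 0.56 (SE 0.25, adjusted p 0.223). S100A4 pointed the other way at -0.61 and S100A10 was at 0.05, with a 95% interval of -0.36 to 0.45. The replicate block called 5 members, all higher in line 2, S100A16 (adjusted p 0.00262), S100A2 (0.00336), S100A11 (0.00590), S100A13 (0.00622) and S100A6 (0.0230), where 24.5% of all genes were called. Leaving out 1 library without the block gave 0.19 to 1.08 for S100A11 and 0.48 to 1.33 for S100A2. The ranges were 0.27 to 0.84 for S100A13 and 0.29 to 0.84 for S100A6. S100A1, outside the 10 members and overlapping S100A13, differed by 1.17 (SE 0.34, adjusted p 0.0738), and its adjusted p was 0.0182 with the block.

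The difference between the KO-labelled lines moved with gene length, and S100 genes are short, with exon lengths of 680 (S100A11) to 2216 bases (S100A13). Among tested genes with an annotated length (13163), the median difference was 0.26 for exon lengths up to 1 kb, 0.24 for 1 to 2 kb, 0.09 for 2 to 4 kb, -0.05 for 4 to 8 kb and -0.15 above 8 kb. After the median of each of 20 length classes was taken out of each library, a step chosen after seeing the data, S100A16 differed between these lines by 0.51 (adjusted p 0.0754) and 0 members were called, where 6.80% of genes were. With the replicate block added the adjusted p of S100A16 was 0.0147, and S100A11, S100A2 and S100A13 were called with it, where 23.6% of genes were. Against the controls, S100A16 in KO-labelled line 2 was at 0.46 after the same step (adjusted p 0.0489), where 12.6% of genes were called. S100A13 in KO-labelled line 1 was at -0.37, with an adjusted p of 0.0162 with the block, and where 24.2% of genes were then called S100A10 was among them, higher by 0.39 (adjusted p 0.0157).

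**Figure D3:**
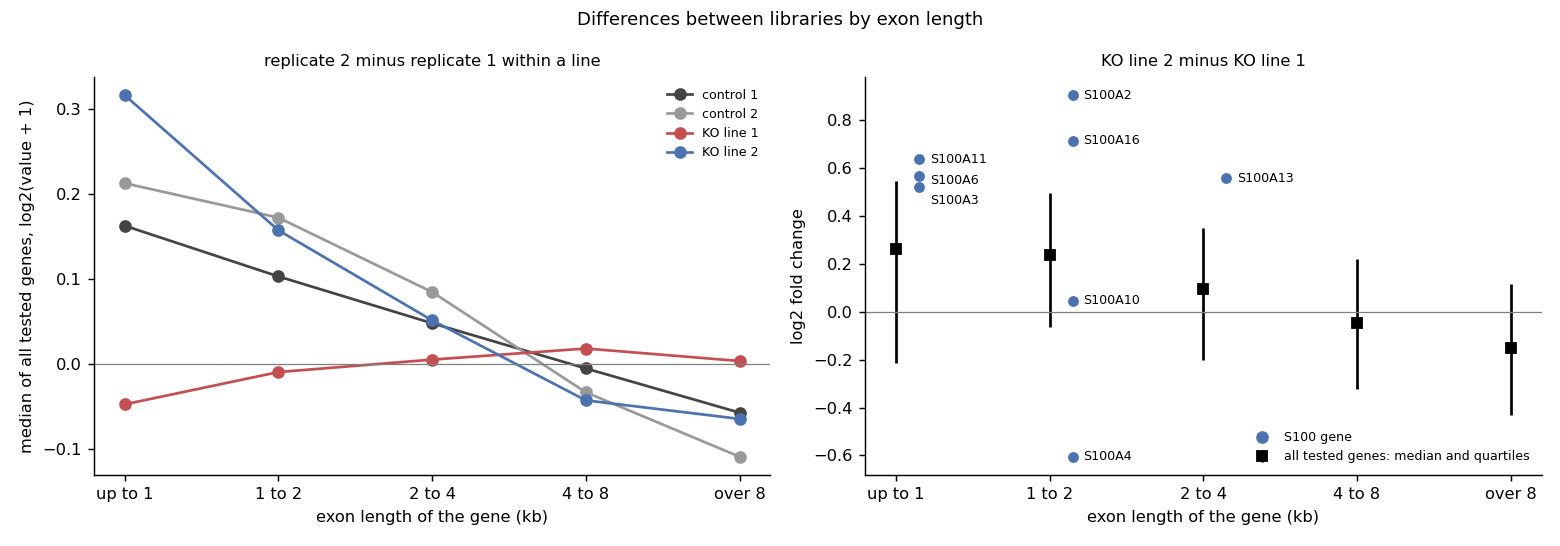
Left, the median difference between replicate 2 and replicate 1 of each line over all tested genes (y axis, log2 scale) by exon length class in kb (x axis). Right, the difference between KO-labelled line 2 and KO-labelled line 1 by length class, as median and quartiles of all tested genes (squares and bars) with the S100 genes as points. The medians fall with length in 3 lines but not in KO-labelled line 1, and S100A2, S100A6, S100A11, S100A13 and S100A16 lie above the upper quartile of their class.

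Control lines 1 and 2 carry different non-targeting guides. Of the 8 members 0 were called between them, where 2.13% of all genes were (299). The differences included S100A10, at 5305 ± 639 in control line 1 and 7480.2 ± 1185 in control line 2 (SD, n = 2 each), 0.49 (SE 0.18, adjusted p 0.214), and S100A6, 0.49 (SE 0.24, adjusted p 0.388). With the replicate block S100A10 was called (adjusted p 0.0302), where 12.5% of all genes were. Side by side, the difference of S100A10 was 0.49 between the control lines, 0.30 for KO-labelled line 2 against the controls and 0.26 for KO-labelled line 1. For S100A16 the control lines were 603 ± 85.6 and 633 ± 89.9, a difference of 0.07 with a 95% interval of -0.30 to 0.44.

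Several members moved with the replicate number, which is no condition of the study. In a model with line and replicate, 3 of the 8 members were called, where 17.6% of all genes were (2470). S100A11 was higher in replicate 2 by 0.65 (SE 0.10, adjusted p 0.00182), with differences of 0.61, 0.79, 0.32 and 0.88 in control lines 1 and 2 and KO-labelled lines 1 and 2. S100A13 was higher by 0.45 (SE 0.09, adjusted p 0.00585), with 0.35, 0.60, 0.28 and 0.57 in the same order. S100A2 differed by -0.53 (SE 0.12, adjusted p 0.0145), with -0.24, -0.57, -0.85 and -0.45. Each of these held its direction in 4 of 4 lines, as did 39.5% of all tested genes. DESeq2 called 4 members, S100A6 in addition to these, where 2101 of 14040 genes were called. In limma S100A6 (0.32 (SE 0.11, adjusted p 0.0656)), S100A10 (0.19 (SE 0.09, adjusted p 0.180)), S100A3 (-0.53 (SE 0.26, adjusted p 0.176)), S100A16 (0.14) and S100A4 (0.10) did not pass. Without either library of control line 2 only S100A11 was called, and without replicate 1 or 2 of KO-labelled line 1 the members called were 4 and 5.

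The difference between replicates also moved with gene length. For exon lengths up to 1 kb the median difference was 0.16, 0.21 and 0.32 in control lines 1 and 2 and KO-labelled line 2, and -0.05 in KO-labelled line 1, and above 8 kb it was -0.06, -0.11, -0.06 and 0.00. After length centring the differences were 0.51 for S100A11 (adjusted p 0.00162), 0.39 for S100A13 (0.00826) and -0.62 for S100A2 (0.00665), and these 3 members were called as before, where 18.1% of genes were. The part of the mitochondrial share in these differences was not tested.

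**Figure D4:**
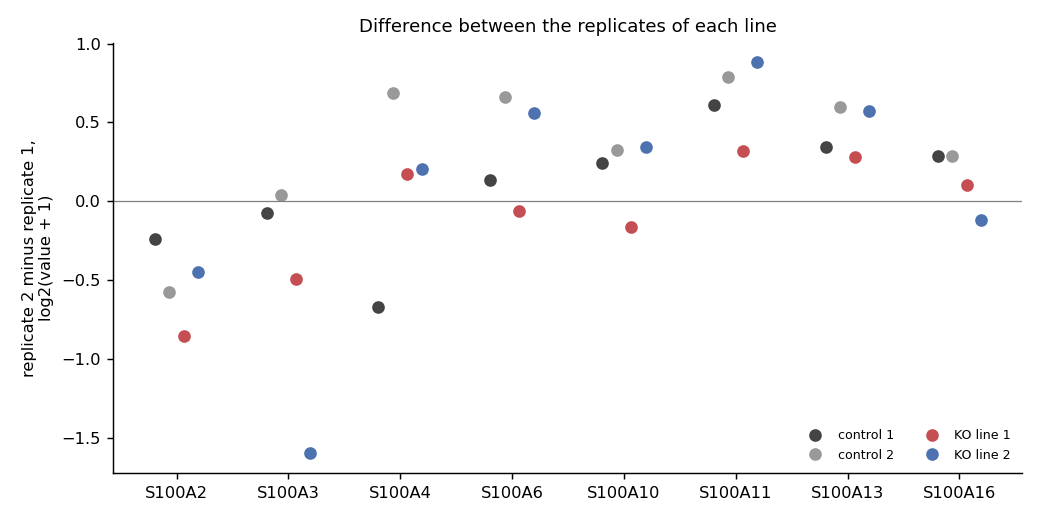
Difference between replicate 2 and replicate 1 (y axis, log2 of normalized count + 1) for each tested S100 gene, with 1 point per line. All 4 lines lie above 0 for S100A11 and S100A13 and below 0 for S100A2, and the lowest point is S100A3 in KO-labelled line 2 (-1.59).

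Of the 13 annexins, the main partners of S100 proteins, 11 were tested. Between KO-labelled and control lines 0 were called, where 0.235% of all genes were. In KO-labelled line 1, ANXA4 (-4.10) and ANXA10 (-2.18) were lower than in the controls and ANXA3 (0.51) higher, and in KO-labelled line 2 ANXA10 (-1.72) and ANXA6 (-0.58) were lower and ANXA3 (0.48) higher. Among all genes, 7.01% and 11.2% were called in these lines without the replicate block. Between the KO-labelled lines 6.94% were called, between the control lines 2.13% and with the replicate number 17.6%. ANXA1 differed between the KO-labelled lines by -0.56, being higher in line 1, where S100A11 was at 7945 ± 1227 against 12839 ± 5381 in line 2. ANXA2, the partner of S100A10, was not called in any of the 6 comparisons without the replicate block and differed from the controls by 0.05 (SE 0.17, adjusted p 0.893) and 0.02 (SE 0.17, adjusted p 0.954) in KO-labelled lines 1 and 2. Between the control lines ANXA10 differed by 1.86. ANXA5 (0.42) and ANXA4 (0.36) were higher and ANXA9 (-0.78) lower in replicate 2. With the replicate block, 24.4% of all genes were called in KO-labelled line 1, 27.4% in KO-labelled line 2, 24.5% between the KO-labelled lines and 12.5% between the control lines, and further annexins were among them. ANXA1 was then called higher (0.40) and ANXA6 lower (-0.42) in KO-labelled line 1, and ANXA7 higher (0.37) in KO-labelled line 2. Between the control lines the block called ANXA2 (0.76, adjusted p 0.00424), ANXA3 (0.55) and ANXA4 (0.68) higher in control line 2. ANXA11 was called in none of the comparisons, ANXA8 was near the filter at up to 15.5, and ANXA8L1 and ANXA13 reached at most 10.2 and 8.27.

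Of 16 other proteins known to bind S100 proteins or to be released with them, 15 were tested. Between KO-labelled and control lines 0 were called, where 0.235% of all genes were. FGF1, the growth factor whose release involves S100A13, was called lower in KO-labelled line 1, at -1.51 (SE 0.35, adjusted p 0.0383), from low counts of 7.83 and 10.4 there, 47.8 and 55.1 (control line 1), and 15.5 and 13.6 (control line 2). In KO-labelled line 2, DLC1, which S100A10 binds, was higher by 0.90 (SE 0.20, adjusted p 0.0232), and KCNK3, a potassium channel carried to the membrane by S100A10, by 1.34 (SE 0.33, adjusted p 0.0315). DLC1 was at 1367 and 1264 in that line and at most 891 in the controls. Between the KO-labelled lines DLC1 (0.93) was higher and PPFIBP1 (-0.82), a liprin bound by S100A4, lower in line 2. IL1A, near the filter with at most 11.4 counts, differed between the control lines by -3.61. This fitted value depends on the pseudocount and describes low counts only, and the call was lost without at least 1 library. With the replicate number, CACYBP (0.43) and SUGT1 (0.26), both bound by S100A6, were higher in replicate 2, and AHNAK (-0.45), the large scaffold that S100A10 and annexin A2 bind, was lower. The replicate block added calls in KO-labelled line 1 of AHNAK (0.56), IQGAP1 (0.37) and PPFIBP1 (0.53), higher, and of CACYBP (-0.27), lower, and in KO-labelled line 2 of EZR (0.29), higher. Between the KO-labelled lines it added KCNK3 (1.13), AHNAK (-0.58) and IQGAP1 (-0.51), and between the control lines FGF1 (-1.75) and KCNK3 (-0.96). Among all genes, 7.01% were called in KO-labelled line 1, 11.2% in line 2, 6.94% between the KO-labelled lines and 2.13% between the control lines. The block gave 24.4%, 27.4%, 24.5% and 12.5% in the same order, and the replicate number 17.6%.

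S100A10 with annexin A2 is a plasminogen receptor, and of 5 genes of plasminogen activation 4 were tested. PLG itself was at most 1.03. PLAT, tissue plasminogen activator, was higher in KO-labelled line 1 by 1.94 (SE 0.39, adjusted p 0.0233), at 1116 and 2947 against 221 to 826 in the controls. PLAT (0.76), PLAUR (1.11) and PLGRKT (0.52) were higher in replicate 2. PLAU was not called in any comparison. The replicate block added calls of PLGRKT in KO-labelled line 1 (-0.48), of PLAT (0.57) and PLAUR (-0.42) in KO-labelled line 2, of PLAT between the KO-labelled lines (-1.38), and of PLAT (1.16) and PLAUR (-0.62) between the control lines. Among 5 receptors of extracellular S100 proteins, AGER was at most 2.07 and CD36 at most 6.21, and BSG, at 10276 to 16351, was called with the replicate block only, higher in KO-labelled line 2 (0.36). TLR4 was at 0 and 1.21 in KO-labelled line 2 and at 32.2 to 71.4 in the controls, and ALCAM differed there by -1.22 (SE 0.12, adjusted p 0.00110). With the block ALCAM was also called in KO-labelled line 1 (-0.28) and between the control lines (-0.49). Among all genes, 7.01% were called in KO-labelled line 1, 11.2% in line 2, 6.94% between the KO-labelled lines and 2.13% between the control lines. The block gave 24.4%, 27.4%, 24.5% and 12.5% in the same order, and the replicate number 17.6%.

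Of 18 listed neighbours of the S100 cluster on chromosome 1, 16 were tested. In KO-labelled line 2, TUFT1 (0.93 (SE 0.18, adjusted p 0.0134)) and JTB (0.40 (SE 0.11, adjusted p 0.0446)) were called higher and 0 lower, 2 of 16 where 11.2% of all tested genes were called, and the median over the 16 was 0.11. TUFT1 was also higher than in KO-labelled line 1 (0.99 (SE 0.21, adjusted p 0.0286)). The other 14 were not called in either comparison without the replicate block, which added JTB (0.34) and RAB13 (0.63) between the KO-labelled lines. In KO-labelled line 1 against the controls, between the control lines and between KO-labelled and control lines 0 of the 16 were called, and the block added RAB13 in KO-labelled line 1 (-0.38) and INTS3 between the control lines (2.10). CGN (-0.93) and SNX27 (-0.28) were lower and RAB13 (0.39) higher in replicate 2. Of the 7 genes of epidermal proteins with a fused S100 domain only FLG, at most 19.6, and TCHH, at most 55.5, passed the filter, and both were called with the replicate number (-1.26 and 0.81). With the block TCHH was called in KO-labelled line 2 (1.34) and between the control lines (1.25). Among all genes, 7.01% were called in KO-labelled line 1, 11.2% in line 2, 6.94% between the KO-labelled lines and 2.13% between the control lines. The block gave 24.4%, 27.4%, 24.5% and 12.5% in the same order, and the replicate number 17.6%.

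Markers of the labelled cell type moved in some of the same comparisons. Of 11 listed markers of kidney epithelial cancer cells 10 were tested, and in KO-labelled line 2 the keratins KRT8 (0.64) and KRT18 (0.66) were higher than in the controls and 0 lower. CD24, a surface glycoprotein, was higher in KO-labelled line 2 than in line 1 (1.21), KRT19 was lower in control line 2 than in control line 1 (-1.35), and PAX8 (0.29), CDH6 (0.62) and VIM (0.46) were higher in replicate 2. Of 9 markers of leukocytes, endothelium, fibroblasts and liver, 2 were tested. COL1A1 was at 177 and 195 in KO-labelled line 1, 383 and 511 in line 2 and 548 to 1408 in the controls, and was called lower in both KO-labelled lines (-2.28 and -1.03). The replicate block added calls of 6 kidney markers in KO-labelled line 1, KRT8 (0.52), KRT18 (0.49) and KRT19 (0.50), higher, and VIM (-0.81), CDH6 (-0.98) and CD24 (-0.82), lower. In KO-labelled line 2 it added PAX2 (0.51) and PAX8 (0.30), both higher. Between the KO-labelled lines it added CA9 (1.73), CDH6 (0.69), PAX2 (0.44), VIM (0.65) and KRT19 (-0.52), and between the control lines KRT18 (0.41) and COL1A1 (-0.82). PDGFRB, a fibroblast and pericyte receptor, was called lower in KO-labelled line 1 with the block (-1.88). Among all genes, 7.01% were called in KO-labelled line 1, 11.2% in line 2, 6.94% between the KO-labelled lines and 2.13% between the control lines. The block gave 24.4%, 27.4%, 24.5% and 12.5% in the same order, and the replicate number 17.6%. The part of these markers in the differences of the S100 genes was not tested.

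Of the 45 calls of listed genes other than the S100 members and ANXA4, 11 held without each library in turn. They were TLR4, ALCAM and ANXA10 in KO-labelled line 2 against the controls, TLR4 between the KO-labelled lines, COL1A1 in KO-labelled line 1, and PLAUR, PLAT, PLGRKT, CACYBP, ANXA9 and CDH6 with the replicate number. The 34 others, those of FGF1, DLC1, KCNK3, TUFT1 and JTB among them, were lost without at least 1 library, and 0 changed direction.

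Across the 8 libraries, which are 2 replicates of 4 lines and so not independent, some pairs of the abundant members varied together. Pearson's r of log2 values, given as a description only, was 0.86 for S100A6 and S100A11, 0.83 for S100A11 and S100A13, 0.82 for S100A6 and S100A10, 0.72 for S100A6 and S100A16 and -0.49 for S100A2 and S100A4. S100A10 was at 0.60 with S100A11, 0.36 with S100A16 and 0.27 with S100A13. S100A2 and S100A11 were at 0.03, so the members did not share 1 pattern. Among 11237 genes with a mean of at least 50, the 2 with the highest r over the 8 libraries were taken for each member. They paired S100A11 with CEP290 (0.982) and MYL12A (0.980), S100A6 with NDUFV2 (0.991) and RPL37A (0.988) and S100A10 with MGST1 (0.979) and APH1B (0.972). S100A16 with PFN1 (0.977) and UCP2 (0.975), S100A13 with ZWINT (0.994) and UBE2C (0.991) and S100A2 with RFXANK (0.973) and DAGLB (0.968) followed. S100A3 with POLD2 (0.975) and SLC33A2 (0.949) and S100A4 with MAFG (0.937) completed the set. PFN1 is profilin, RPL37A a ribosomal protein, NDUFV2 a subunit of mitochondrial complex I, MYL12A a myosin light chain, and ZWINT and UBE2C are genes of mitosis. The libraries share depth, line and the length trend, and a high r with the best of 11237 genes was chosen for being high.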

How the data were processed

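Polyadenylated RNA of 8 libraries was sequenced, with 2 replicates of each of 4 lines. The deposited values are a signal per gene, normalized read counts in which the authors divided each library's reads by 1 factor. Whole reads were recovered from 100% of the 140322 values above 0, within 0.01 read, and totalled 15784890 to 22631588 per library. The submitters' processing notes list fastp 0.23.2, HISAT2 2.2.1, featureCounts 2.0.1, DESeq2 2.11.40.8 and the build hg38. The strand setting and the annotation used in counting are not given in the sources used here.

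Differences on the scale of log2(value + 1) were tested by limma (3.58.1, R 4.3.3) over those 14040 of 28395 genes that reached a value of 10 in 2 or more libraries, with Benjamini-Hochberg adjustment over all of them and a call at an adjusted p under 0.05. KO-labelled against control lines was fitted with the correlation within a line, 0.33, as estimated by limma. The edgeR and DESeq2 fits of this comparison held no term for the line. The lines shared 1 model in which each had its own mean, and replicates were compared in a model with line and replicate. The alternatives were edgeR 4.0.16 and DESeq2 1.42.0 on the recovered reads, other pseudocounts, filters and scalings, a replicate block, a separate mean per line, line means, each library left out in turn and, chosen after seeing the data, centring by exon length. The main limma fit of each comparison was tested on simulated counts that held no line or replicate effects besides the changed genes. The alternatives were not tested in this way. Across pairs of lines the differences between replicates correlated over genes at r of 0.285 to 0.501, above 0.1 in every pair, so replicate numbers were taken to pair the libraries, and blocked values are given where they change a call of a member or listed gene. Replicates of a line correlated at 0.978 to 0.987.

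Symbols and coordinates come from RefSeq on GRCh38.p14. Of the identifiers 27745 have a symbol, and the 650 others hold 0.0332% of the reads. Exon lengths are unions of GENCODE exons and cover 93.8% of the tested genes. Promoters are RefSeq sequences, matched for each of the 10 members. Members and gene lists were chosen with earlier results of these data known. All members and ANXA4 are named, other S100 genes by their highest value, genes of other lists where they are annexins or were called, and the genes most alike in pattern by Pearson's r. Other genes, and promoters, were chosen after their values were seen. Some genes that these rules would name are not reported here.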

Additional observations from a re-analysis of the deposited data

Results flagged for a closer look

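The KO-labelled lines, compared with each other within the same model, differed in 10 of the listed genes, where 6.94% of all tested genes were called. Those called higher and lower in line 2 were 1 and 0 of 8 S100 members and 1 and 1 of 11 annexins. Other S100 targets had 1 and 1 of 15, S100 receptors 0 and 2 of 3, and chromosome 1 neighbours 1 and 0 of 16. Kidney markers had 1 and 0 of 10, and markers of other cells 1 and 0 of 2. S100A16 was higher in line 2 than in line 1 by 0.71 (limma, adjusted p 0.0380). It was called in 2 of the 8 fits without 1 library, and its adjusted p was 0.0754 after length centring. ANXA4, the targeted gene, differed by 4.0 (adjusted p 0.000140), low in line 1 only. TUFT1 (0.99, adjusted p 0.0286), DLC1 (0.93, adjusted p 0.0481), CD24 (1.21, adjusted p 0.0282) and COL1A1 (1.25, adjusted p 0.0251) were higher in line 2. ANXA1 (-0.56, adjusted p 0.0462), PPFIBP1 (-0.82, adjusted p 0.0290) and ALCAM (-0.93, adjusted p 0.00856) were lower. TLR4 differed by -5.09 (adjusted p 0.00104), a fitted value that depends on the pseudocount and is no bound, since line 2 had 0 and 1.21 normalized counts. Of the 8 fits without 1 library, 8 called ANXA4 and TLR4, 6 ALCAM, 5 COL1A1, 4 DLC1 and CD24, 3 PPFIBP1, 2 TUFT1 and 0 ANXA1.

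In 2 genes 1 library of a group of 4 lay far from the others, with a gap to its nearest neighbour that took most of the group's range. ANXA6 had 3515 in replicate 2 of KO-labelled line 1 and as little as 2879 in the group (gap over range 0.874). CGN ranged from 9.36 to 27.5 in the control libraries (0.857). For 4 independent libraries chance alone gives such a gap in about 1 in 20 groups. Each group here was 2 lines with 2 replicates each, so that rate need not hold. Both groups of each tested S100 gene, annexin and called gene were examined.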

How the results depend on the processing

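Between KO-labelled and control lines 33 genes were called, 71 with no filter, 186 with edgeR and 850 with DESeq2. The edgeR and DESeq2 fits counted replicates of a line as independent samples. A separate mean per line gave 1474 genes, and line means in limma gave 0 (1086 at an unadjusted p under 0.05). Without 1 library 7 (without replicate 1 of KO-labelled line 2) to 39 were called. The S100 members called were 0 in all of these fits. Without the replicate block, with it, and with it after length centring, the genes called were 984, 3432 and 3190 in KO-labelled line 1, 1573, 3851 and 3777 in KO-labelled line 2, 299, 1752 and 1774 between the control lines, and for KO-labelled line 2 against line 1 975, 3442 and 3107. The S100 members called were 0, 1 and 2, then 1, 4 and 4, then 0, 1 and 1, and 1, 5 and 4 in the same order. Between the control lines 183 genes were called with no filter and 655 with DESeq2. For KO-labelled line 2 the members called were 0 with no filter and 0 with equal totals, and between the KO-labelled lines 0 after length centring alone.

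Without 1 library, where the lone library of a line is assumed to vary like the others, 148 (without either replicate of KO-labelled line 1) to 1312 genes were called in KO-labelled line 1, 813 (without replicate 1 of control line 1) to 1363 in KO-labelled line 2, 43 (without replicate 1 of control line 1) to 410.0 between the control lines, in the comparison of both KO-labelled lines 87 (without replicate 2 of line 1) to 1003, and 706 (without replicate 2 of control line 2) to 2274 with the replicate number, against 2470.0 in all. The members called were 0 to 0 in KO-labelled line 1 and between the control lines, 0 to 2 in KO-labelled line 2, 0 to 1 between the KO-labelled lines and 1 to 5 with the replicate number.

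Some differences of single genes changed sign. With edgeR and DESeq2 S100A3 was at 0.0502 and 0.0512 between KO-labelled and control lines. After length centring, with or without the block, S100A6 and S100A11 were at 0.14 and 0.0503 in KO-labelled line 1 and S100A10 at -0.16 between the KO-labelled lines, and S100A4 was at -0.0338 with the replicate number. Without 1 library, the differences between KO-labelled and control lines ran from -0.0135 to 0.42 for S100A2, -0.48 to 0.16 for S100A3 and -0.0384 to 0.37 for S100A11. In KO-labelled line 1 they ran from -0.73 to 0.12 for S100A2, -0.19 to 0.14 for S100A6 and -0.31 to 0.0817 for S100A11. In KO-labelled line 2 they ran from -0.64 to 0.96 for S100A3, -0.21 to 0.14 for S100A4, -0.22 to 0.35 for S100A13 and -0.30 to 0.10 for ANXA4. Between the control lines they ran from -0.17 to 0.52 for S100A4, -0.26 to 0.53 for S100A11, -0.17 to 0.43 for S100A13 and -0.0749 to 0.22 for S100A16, and between the KO-labelled lines from -0.28 to 1.32 for S100A3 and -0.13 to 0.22 for S100A10. With the replicate number S100A4 ran from -0.096 to 0.36. With all libraries and without length centring none of these was called in limma. The cause was not tested. Of the 45 calls of other listed genes, edgeR kept 45, DESeq2 41, equal totals 38, no filter 37 and length centring 43, and the replicate block kept 28 of the 28 it was fitted on. S100A4, S100A14 and S100P were limited by depth.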
